A study of Mus musculus with 134 samples.

Results

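The 6 in vitro tagmentation libraries made with different amounts of Tn5 were compared with the 2 libraries of ligation-based RNA-seq, the conventional method of the study. They are 8 of the 54 bulk expression libraries in the series of 134 samples. All are labelled as E14 cells, mouse embryonic stem cells of strain 129/Ola, and the study's methods name the line as ES-E14TG2a. The labels give them as untreated at day 1 and with no antibody, and grown with serum and leukemia inhibitory factor. The tagmentation libraries, titled vitro-Tn5, were made with 25, 50 and 100 ng/µl of Tn5, with 2 libraries each, and were handled as 1 group of 6. The ligation-based libraries formed a group of 2. Other bulk libraries served for comparison: 22 of in vitro tagmentation at other temperatures, times or RNA amounts, 20 of SET-seq from wild-type cells, and 4 of SET-seq from Aebp2 knockout clones. Of the wild-type SET-seq libraries, 8 were made without antibody and 12 with an antibody against H3K4me3 or H3K27me3. The 4 knockout libraries are titled with H3K27me3. Wild-type SET-seq started from 10 to 10000 cells, and the ranges below pool these inputs and antibodies. SET-seq, the joint method of the study, uses cytoplasmic RNA separated from nuclei.

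The library types read an mRNA in different ways. For vitro-Tn5, total RNA was treated with DNase and reverse transcribed from the poly-A tail with an oligo-dT primer, and the Tn5 transposase cut the mRNA/cDNA hybrid and attached the adapters without synthesis of a second strand. For ligation-based RNA-seq, poly-A mRNA was purified and fragmented before random-primed reverse transcription, second-strand synthesis and ligation of adapters. The first were read as 150 base pairs from each end on NovaSeq and the second as 100 base pairs on BGISEQ-500. Priming, fragmentation, read length and sequencer all differ between the groups. The labels and the study's methods do not say whether the culture and the RNA extraction differ as well. The parts of all these in any difference cannot be told apart from these 8 libraries alone. The other tagmentation libraries give values beside them, and those of SET-seq come from cytoplasmic RNA.

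Counts came from reads that map to 1 place and lie in 1 gene, and stranded counting was not used. The genes with the highest fold changes included annotations whose exons repeat the coding sequence of another gene. Their sequences are shown because they tell which transcript a read on them could come from. They were read from NCBIM37, the build of mm9, and are written 5′ to 3′ on the strand of the coding gene. The microRNA annotation Mir682 is on the plus strand at chr13:75782494-75782589, and all 96 bases align with the joined exons of Rpl37a, which encodes a protein of the large ribosomal subunit, between chr1:72758734-72760106. The only difference, 1 base in 96 (98.96% identity), is in capitals.
Mir682: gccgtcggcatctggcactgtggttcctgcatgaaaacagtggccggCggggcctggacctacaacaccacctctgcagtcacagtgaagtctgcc
Rpl37a: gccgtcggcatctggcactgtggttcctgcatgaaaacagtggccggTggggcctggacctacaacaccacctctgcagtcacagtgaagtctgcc

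The microRNA annotation Mir692-1 is on the minus strand, and its stretch at chr17:7099597-7099686 aligns with the coding sequence of Ftl1, the ferritin light chain, at chr7:52713480-52713569, also on the minus strand. They differ in 4 of 90 bases, in capitals.
Mir692-1: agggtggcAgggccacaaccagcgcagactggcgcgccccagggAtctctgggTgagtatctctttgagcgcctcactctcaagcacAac
Ftl1: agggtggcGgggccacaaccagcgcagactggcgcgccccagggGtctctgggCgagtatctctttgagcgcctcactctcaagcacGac

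The mature microRNAs annotated on both hairpins lie inside these shared stretches. They are given with the seed, bases 2 to 8, in capitals, from RefSeq with GRCm38.p6, and they do not share a seed.
miR-682: cUGCAGUCacagugaagucug
miR-692: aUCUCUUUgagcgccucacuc

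The predicted gene Gm5148 (chr3:37613662-37613751, plus strand) holds the first 90 coding bases of Rps23, which encodes a protein of the small ribosomal subunit, without a difference. The start codon is in capitals. Gm5148 itself is annotated on the minus strand, opposite to its copy of Rps23.
Gm5148 and Rps23: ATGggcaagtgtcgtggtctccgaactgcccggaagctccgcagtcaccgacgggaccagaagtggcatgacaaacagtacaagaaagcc

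The total counts ranged from 3710685 to 17647365 in the vitro-Tn5 libraries, where the replicates 1 held 3710685 to 7739123 and the replicates 2 15725615 to 17647365, and were 14286607 and 14184697 in the ligation-based libraries. Rn45s, the precursor of ribosomal RNA, took 4.30% to 8.17% of the counts with tagmentation and 1.54% and 1.96% with ligation (exact permutation test, two-sided p = 0.0357, the smallest that 6 against 2 libraries can give), and it was removed from all other values. This test and those below take the 6 vitro-Tn5 libraries as independent, although replicates of the same number deviated together across Tn5 amounts (Pearson's r across genes of 0.645 to 0.744), so their p-values may be too small. The level of a gene is given as CPM, its count for every 1000000 of the remaining counts. Across genes, which are not independent replicates, Pearson's r of log2 CPM was 0.963 to 0.994 between vitro-Tn5 libraries, 0.997 between ligation-based libraries and 0.814 to 0.838 between the types. After thinning to 3426759 counts, 15017 to 15554 genes were detected with at least 1 count in the vitro-Tn5 libraries and 14988 and 15071 in the ligation-based libraries, a mean difference of 200.8 genes (exact permutation p = 0.214, two-sided). The SD was 188 genes between the vitro-Tn5 and 58.7 genes between the ligation-based libraries, and the difference was -55.8 genes with at least 5 counts.

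Of 14063 genes tested, 3637 were higher (25.9%) and 3555 lower (25.3%) with tagmentation, at an adjusted p below 0.05 and an absolute log2 fold change above 1. Scaling to total counts without TMM, which moved the median log2 fold change of all genes from 0.02 to -0.24, gave 2898 higher and 4292 lower, so the higher calls fell from 50.6% to 40.3% of all calls. The balance of both directions thus depends on the scaling, and changes are given relative to the TMM scaling. The 6 and 2 libraries did not overlap for 3391 of the higher and 3535 of the lower genes. They did not overlap for 10271 (73.0%) of all genes tested, called or not, so a lack of overlap is common here. Counts of called genes in a class are to be read against these percentages. The labels do not say whether the libraries came from separate cultures, so the p-values measure the spread between these libraries, which may be technical.

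Marker genes of embryonic stem cells were present in both library types. Pou5f1, the core pluripotency factor Oct4, was at 222 to 277 CPM in the 6 vitro-Tn5 libraries and at 807 and 847 CPM in the ligation-based libraries. Sox2, its partner, was at 182 to 311 against 793 and 761 CPM, and Nanog was at 230 to 316 against 1156 and 1169 CPM. All 3 fell, by 1.503, 1.43 and 1.86 on the log2 scale (SE 0.11, 0.18 and 0.16), while Zfp42, also known as Rex1, was at 440 to 515 against 458 and 456 CPM and was not called. Over the 24 pluripotency genes, 7 were higher and 9 lower, with a median log2 fold change of 0.03. The sign of this median is not stable, and it was -0.23 without TMM.

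4 genes were examined as candidates for a difference between cell stocks: Hprt, Mid1, Lef1 and Ftl1. Hprt encodes the enzyme that salvages hypoxanthine and guanine. E14TG2a cells are known as an Hprt-deficient line, so its level also bears on the name of the line. Mid1 encodes a microtubule-associated ubiquitin ligase on the X chromosome, Lef1 a DNA-binding factor of the Wnt pathway, and Ftl1 the light chain of the iron-storage protein ferritin.

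Hprt (chrX:50341255-50374837) had 3 and 0 counts at 25 ng/µl, 0 and 4 at 50 ng/µl and 1 and 3 at 100 ng/µl of Tn5, which is 0 to 0.409 CPM. The ligation-based libraries had 2592 and 2520 counts, or 184 and 181 CPM. The groups were far apart, with a log2 fold change of -9.63 ± 0.36 (SE, n = 6 against 2, adjusted p = 1.16e-07). Thus the ligation-based libraries carried Hprt mRNA, which goes against the known deficiency of E14TG2a cells, and the vitro-Tn5 libraries nearly lacked it. None of its exon windows of 100 bases is repeated in the genome.

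Mid1 (chrX:166123131-166428729) was at 583 and 373 CPM with 25 ng/µl, 628 and 378 CPM with 50 ng/µl, and 500 and 338 CPM with 100 ng/µl of Tn5. It was at 3.48 and 3.74 CPM in the ligation-based libraries. All 6 vitro-Tn5 libraries were high and both ligation-based libraries low, a log2 fold change of 7.24 ± 0.32 (SE, adjusted p = 1.92e-07). Lef1 (chr3:130813215-130927275) went the same way, at 39.8 and 29.4, 46.9 and 34.5, and 45.8 and 31.5 CPM for the rising amounts of Tn5. It was at 2.84 and 3.16 CPM with ligation, a log2 fold change of 3.89 ± 0.23 (SE, adjusted p = 6.75e-07).

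Ftl1 (chr7:52713314-52715256) was at 29.5 and 27.1, 28.3 and 30.6, and 32.4 and 28.9 CPM in the vitro-Tn5 libraries. With ligation it was at 812 and 826 CPM, so all 6 tagmentation libraries were low, with a log2 fold change of -4.54 ± 0.12 (SE, adjusted p = 3.96e-08). Of its windows of 100 bases, 60.6% occur again in the genome, in contrast to 0.240% for Mid1 and 0.279% for Lef1. Fth1, the ferritin heavy chain, moved the other way: 1205 to 2177 CPM against 496 and 490 CPM, a log2 fold change of 2.06 ± 0.32 (SE).

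The other tagmentation libraries did not have 1 pattern for these genes. In the 22 other in vitro libraries Hprt was at 0 to 1.29 CPM, Mid1 at 55.7 to 772, Lef1 at 3.09 to 133 and Ftl1 at 3.09 to 57.2 CPM. The lowest values of Mid1, Lef1 and Ftl1 were all from replicate 2 made with 30 pg of RNA. In the 4 Aebp2 knockout libraries the values were 0 to 2.14, 122 to 240, 32.0 to 75.5 and 0 to 2.14 CPM, on the side of vitro-Tn5 for every gene. In the 20 SET-seq libraries from wild-type cells, Hprt was at 66.2 to 485 CPM, Mid1 at 0 to 11.6, Lef1 at 0 to 15.3 and Ftl1 at 4704 to 8391 CPM, on the side of the ligation-based libraries. Tagmentation libraries held both patterns, and so did the SET-seq libraries, all made by the method that uses cytoplasmic RNA. Among these, the wild-type libraries lay on the side of ligation and the knockout libraries on the side of vitro-Tn5. The part of the RNA fraction was not tested. The fitted log2 fold changes against the same ligation-based libraries, side by side, were -10.74 for Hprt in the libraries tagmentated at 16 °C and -0.69 in SET-seq of 10000 cells. For Mid1 they were 7.52 and -0.11, for Lef1 4.84 and 0.73, and for Ftl1 -5.04 and 3.58.

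**Figure D1:**
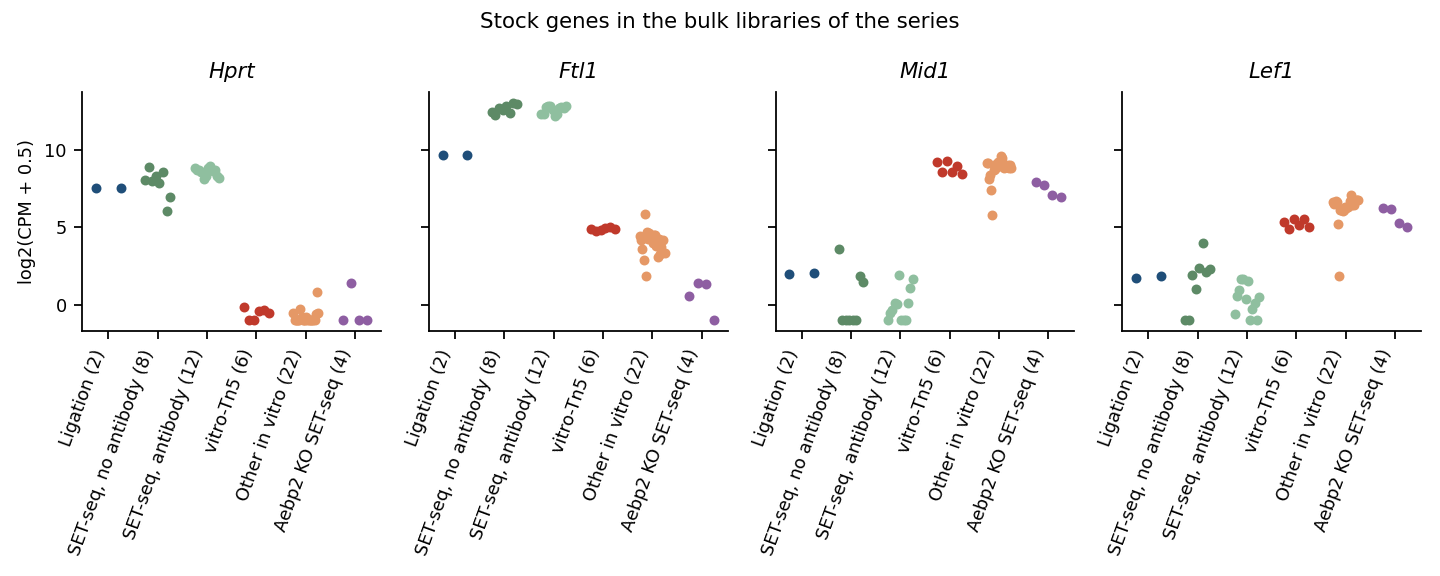
Levels of Hprt, Ftl1, Mid1 and Lef1 in the 54 bulk libraries, as log2(CPM + 0.5) with Rn45s removed; each point is 1 library and the number of libraries is in parentheses. Hprt and Ftl1 are low, and Mid1 and Lef1 high, in the vitro-Tn5, other in vitro and Aebp2 KO libraries, while wild-type SET-seq lies on the side of the ligation-based libraries. The lowest other in vitro library for Lef1, made with 30 pg of RNA, is at 3.09 CPM, between both ligation-based values.

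The 4 changes were also large for genes of their length. The middle 90% of the 2947 tested genes of 1000 to 2000 bases, the length class of Hprt, ran from -1.75 to 3.40 on the log2 scale. For the class of Mid1 (4000 to 8000 bases) the range was -3.06 to 1.56, for that of Lef1 (2000 to 4000 bases) -2.70 to 2.44 and for that of Ftl1 (500 to 1000 bases) -1.32 to 4.33. All 4 lay outside the range of their length class, and also outside the middle 90% of genes in their class of GC content. These 4 genes were chosen with earlier results of these data known, so their place outside these ranges is a description and no test. The genes related to them by function or place did not move as a group. Of 18 purine salvage and synthesis genes tested, 3 were higher and 7 lower (median -0.49). Aprt, which salvages adenine, was higher at 517 to 946 CPM against 144 and 149 CPM (log2 fold change 2.57 ± 0.36, SE). Of the 16 ferritin and iron handling genes, 3 were higher and 5 lower, among them Tfrc, the transferrin receptor, with 40.003 to 69.7 CPM against 886 and 844 CPM. Of 5 genes tested around Mid1 on the X chromosome, Mid1 among them, 2 were higher and 3 lower, with -1.74 for Prps2, -1.47 for Hccs and -1.27 for Msl3.

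Wnt pathway and target genes were mixed, with 8 of 19 higher and 2 lower (median 0.13, and -0.16 without TMM). Sp5, a Wnt target gene, was at 134 to 231 CPM against 20.0 and 21.1 CPM (log2 fold change 3.46 ± 0.29, SE). T, the mesoderm factor Brachyury and a Wnt target, was at 47.5 to 91.7 CPM against 10.8 and 10.5 CPM (2.89 ± 0.24). Sp5 was at 83.4 to 250 CPM in the 22 other in vitro libraries and at 10.8 to 71.6 CPM in wild-type SET-seq. T was at 46.3 to 111 CPM and 0 to 46.0 CPM in these sets and at 0 to 9.81 CPM in the knockout libraries. Ctnnb1, which encodes β-catenin, was at 315 to 639 CPM against 907 and 887 CPM and was not called (-0.78 ± 0.21).

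A different pattern was found for annotations with copied sequence, which were near 0 with ligation and high in every type of tagmentation library. Gm5148 had 77576 counts over the vitro-Tn5 libraries, at 847 to 1510.4 CPM, and 0 and 1 count in the ligation-based libraries. The ratio of the pooled levels was 35055 (95% interval 6291 to 1384620 from counting error alone). Rps23, whose first coding bases it holds, was at 6.41 to 12.8 CPM against 5.97 and 6.33 CPM and was not called (log2 fold change 0.94 ± 0.30), with 89.1% of its own windows repeated.

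Mir682 was at 247, 892, 390, 1097, 442 and 904 CPM in the vitro-Tn5 libraries, where the replicates 2 were higher than the replicates 1, against 0.142 and 0 CPM. The ratio was 11302 (3128 to 93324), and its parent Rpl37a was at 273 to 772 CPM against 17.6 and 20.1 CPM (4.98 ± 0.66, SE). With an annotated length of 96 bases, Mir682 is shorter than 1 sequencing read of either type.

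H3f3c, an intronless annotation with 90 bases shown by alignment to be identical to H3f3a, was at 88.3 to 137 CPM against 0.0711 and 0.0719 CPM, a ratio of 1437 (398 to 11866). H3f3a, which encodes the replacement histone H3.3, was at 165 to 256.2 CPM against 59.0 and 59.8 CPM. H3f3b, which encodes the same protein from other bases, was at 195 to 366 CPM against 433 and 440 CPM. It was not called (log2 fold change -0.30 ± 0.25). Ubb-ps, a ubiquitin B pseudogene with 95.9% of its windows repeated, was at 21.7 to 50.9 CPM against 0 and 0.0719 CPM, and Ubb itself was at 1357 to 1719 CPM against 222 and 220 CPM.

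Gm5148, Mir682, H3f3c and Ubb-ps were above both ligation-based libraries in all 22 other in vitro, all 20 wild-type SET-seq and all 4 knockout libraries. Mir682, for example, was at 182 to 1649 CPM in the other in vitro libraries, 751 to 1542 CPM in wild-type SET-seq and 250 to 339 CPM in the knockouts. Read length differs between the vitro-Tn5 and the ligation-based libraries, and its part in this pattern was not tested. Mir692-1 was the exception: 6.66 to 18.1 CPM in vitro-Tn5 and 0 with ligation, at least 91.6-fold higher against a floor of 3 counts over the group. It was at 0 to 10.2 CPM in the other in vitro libraries, 0 to 0.808 CPM in wild-type SET-seq and 0 to 0.890 CPM in the knockouts. The knockouts thus had low values of both Mir692-1 and Ftl1.

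**Figure D2:**
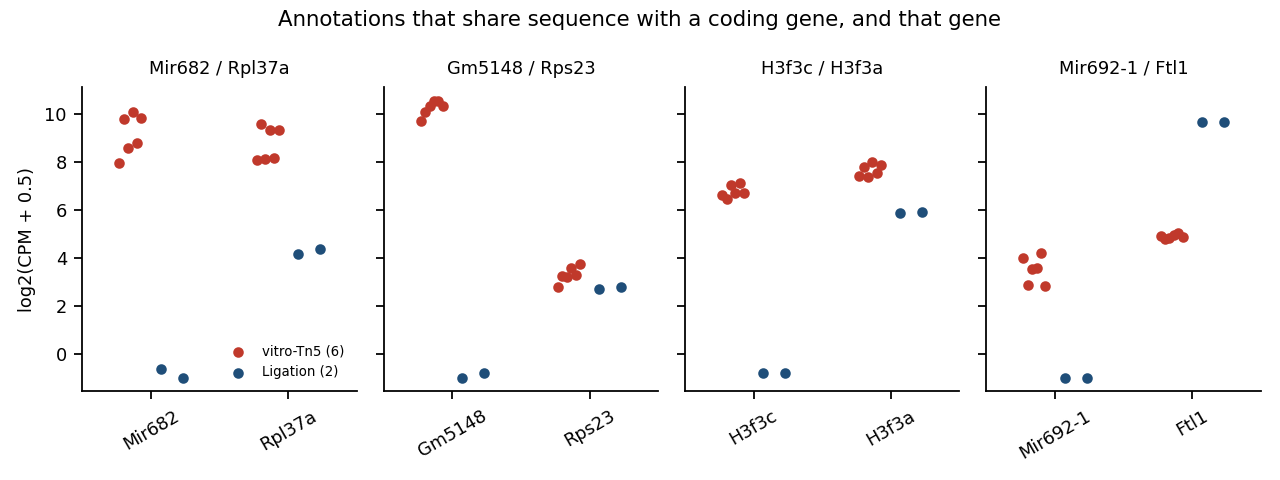
Levels of 4 annotations that share sequence with a coding gene, and of that gene, as log2(CPM + 0.5) in the 6 vitro-Tn5 and the 2 ligation-based libraries; each point is 1 library. The ligation-based libraries are at 0 to 2 counts for every copy, and Ftl1 is the only parent that is higher with ligation.

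The repeated share of a gene's sequence was weakly related to its fold change over all genes (Spearman's rho = 0.102), and the medians did not rise in order. Genes with no repeated window of 100 bases had a median log2 fold change of 0.40 (1633 genes), those with up to 10% repeated -0.07 (11524 genes), those with 10% to 50% repeated 0.47 (648 genes), those with 50% to 90% repeated 1.54 (201 genes, 112 higher and 31 lower) and those with over 90% repeated 2.06 (14 genes). The last class holds fewer than 20 genes. A fit of the genes with under 10% of repeated windows alone gave 3250 higher and 3364 lower. Gapdh, the glycolytic enzyme often used as a reference gene, has 80.7% of its windows repeated and was at 9.14 to 11.1 CPM against 9.81 and 13.4 CPM (log2 fold change 0.03 ± 0.17). Ppia, another reference gene, which the files list at 2 loci with 96.1% repeated windows, was at 953 to 1597 CPM against 2.91 and 2.37 CPM. Actb, with 1.92% repeated, was at 1157 to 2150 CPM against 2160 and 2206 CPM (-0.15 ± 0.29), and Tbp was lower, at 14.2 to 21.97 CPM against 68.1 and 73.1 CPM (-1.62 ± 0.18).

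Shorter genes were higher and longer genes lower with tagmentation. The median log2 fold change was 2.01 for genes of 300 to 500 bases (72 of 107 higher, 3 lower), 1.58 for 500 to 1000 bases, 0.97 for 1000 to 2000, 0.02 for 2000 to 4000, -0.70 for 4000 to 8000 and -0.98 for over 8000 bases (44 of 757 higher, 361 lower). Genes under 300 bases, most of them small noncoding RNAs, broke the order with a median of 0.60 and the widest spread (76 genes, 28 higher and 20 lower). Together, genes under 500 bases had a median of 1.58, with 100 of 183 higher and 23 lower. Medians of single vitro-Tn5 libraries were taken in another way, as differences of TMM-scaled log2 CPM, with 0.5 added, to the ligation-based mean. For genes under 500 bases they were 0.37 to 1.26 (SD 0.44), all below the fitted 1.58, so this SD is not an error of the fitted median. Library medians given below are of this kind. Among these short genes, 16 histone genes had 2.87, 68 small noncoding RNAs 0.74 and 99 others 1.91. Spearman's rho of length with the log2 fold change was -0.457 over all genes tested, which are not independent replicates.

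From 1000 bases up, each vitro-Tn5 library showed this order on its own, but the replicates differed in its steepness. Below 1000 bases, the replicates 1 at 25 and 50 ng/µl had a lower median for 300 to 500 than for 500 to 1000 bases. In the replicates 1, genes of 300 to 500 bases were 0.68 to 1.03 above and genes over 8000 bases 0.65 to 0.71 below the ligation-based libraries, as medians on the log2 scale. In the replicates 2 the values were 1.66 to 1.73 above and 1.20 to 1.25 below. Between both replicates of the same Tn5 amount, replicate 2 minus 1 had a median of 0.88 for genes of 300 to 500 bases and of -0.53 for genes over 8000 bases. The replicates 2 are also the deeper libraries, and the part of depth was not tested. Side by side, the median for 300 to 500 bases was 1.64 at 16 °C, 1.93 at 37 °C, 1.89 with 300 ng of RNA and 2.39 in SET-seq of 10000 cells, each against the same ligation-based libraries. In the same order, genes over 8000 bases had -0.59, -0.48, -0.74 and -1.13. Genes under 300 bases had 0.40, 1.27, -0.69 and -0.87, so the sign of their median differed between sets.

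GC content of the exons went with the fold change as well. The median was -2.46 for genes of at most 40% GC (459 of 561 lower, 18 higher), -1.37 for 40% to 44%, -0.61 for 44% to 48%, 0.01 for 48% to 52%, 0.54 for 52% to 56%, 0.94 for 56% to 60% and 1.37 for over 60% (477 of 831 higher, 43 lower). Spearman's rank correlation with GC content was 0.536, higher in size than for length, and in contrast to length the 6 libraries agreed closely, with medians of -2.32 to -2.12 in the lowest class and 1.05 to 1.15 in the highest. Length and GC are themselves related (rho = -0.254). Within one range of either, the other still went with the fold change: genes of 2000 to 4000 bases had a median of -0.97 at up to 48% GC and of 0.64 at over 52%, and genes over 52% GC had 1.90 at 500 to 1000 bases and -0.22 at over 8000 bases. The number of exons (rho = -0.190) and the mean level (0.059) were related to it less. Against the same ligation-based libraries, rho of GC was 0.399 at 16 °C, 0.196 at 37 °C, 0.462 with 300 ng of RNA and 0.547 in SET-seq of 10000 cells.

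**Figure D3:**
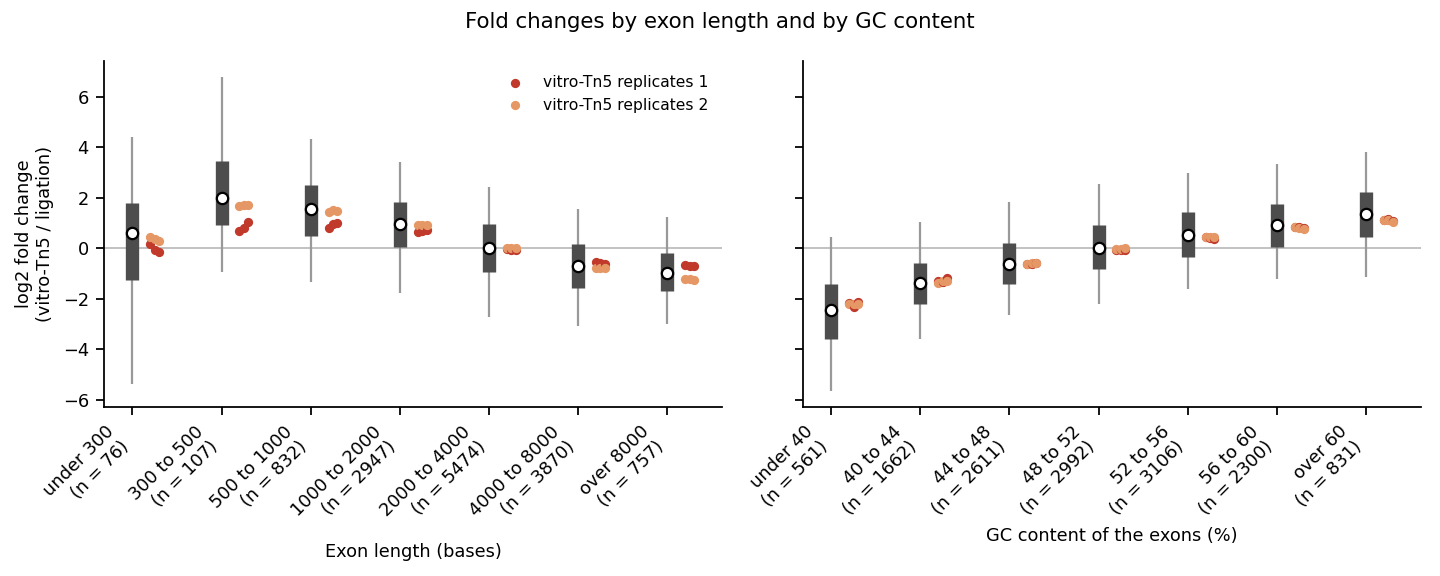
Log2 fold changes (vitro-Tn5 over ligation) of the 14063 genes tested by exon length in bases (left) and GC content in percent (right); white points are medians, bars quartiles and lines the 5th to 95th percentiles, and coloured points are the medians of the 6 vitro-Tn5 libraries. The medians fall from 2.01 to -0.98 from 300 to 500 bases to over 8000 bases and rise from -2.46 to 1.37 with GC content, and the replicates 2 lie farther from 0 than the replicates 1 in the longest class.

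**Figure D4:**
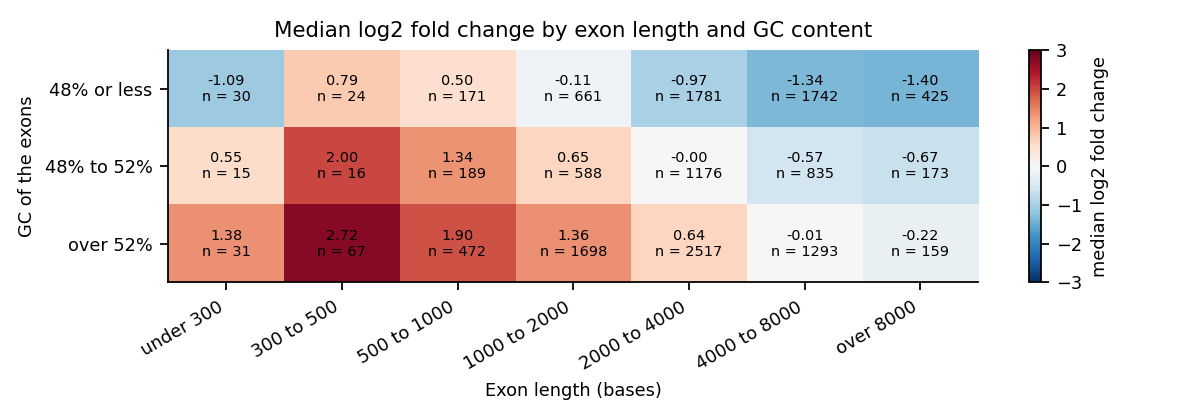
Median log2 fold change (vitro-Tn5 over ligation) in 21 classes of exon length (horizontal, bases) and GC content (vertical), with the number of genes in each; red is higher and blue lower with tagmentation. At each GC content the median falls from 300 to 500 bases to longer genes, from 2.72 to -0.22 at over 52% GC and from 0.79 to -1.40 at up to 48%.

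Large falls were taken as the 10 lowest log2 fold changes among called genes with a mean log2 CPM of at least 3 and no overlap between the groups. Ftl1 was one of them. The mean is over all 8 libraries, 6 of them tagmentation, so genes near 0 with tagmentation could miss it. Hprt did so, although its log2 fold change of -9.63 was lower. Genes near 0 with ligation passed more easily. Plagl1, an imprinted zinc finger gene, was at 1.88 to 6.40 CPM with tagmentation and at 285 and 272 CPM with ligation, a log2 fold change of -6.10 ± 0.27 (SE). It was at 0 to 7.96 CPM in the other in vitro libraries and at 26.2 to 297 CPM in wild-type SET-seq. Trp53inp1, a p53-induced gene with 38.8% GC, was at 5.32 to 10.5 CPM against 376 and 334 CPM. Taf15, an RNA-binding protein of the FET family with 49.1% GC, was at 3.50 to 4.98 CPM against 180 and 170 CPM. Ythdf3, a reader of m6A-modified RNA, Xpo1, the nuclear export receptor, Stag2, a cohesin subunit, and Uba6, a ubiquitin-activating enzyme, fell by 4.73, 4.71, 4.68 and 4.67 on the log2 scale, and their GC contents were 38.8%, 39.0%, 39.7% and 37.7%. Ppp3r1, the regulatory subunit of calcineurin (40.8%), and the short Gm20594 (334 bases, 36.5%) both fell by 4.49. 

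By the same rule, the largest rises besides the copied annotations included ribosomal protein genes and Ppia. Rpsa was at 2589 to 4118 CPM against 7.54 and 13.7 CPM, and Rps10 at 648 to 2366 CPM against 5.12 and 5.18 CPM. Among the called genes with the highest mean level, Eef1a1, the elongation factor that brings tRNA to the ribosome, was at 18196 to 21195 CPM against 2528 and 2635 CPM (log2 fold change 3.16 ± 0.18, SE). Pabpc1, which binds poly-A tails, Pkm, a glycolytic enzyme, Rpl4 and the elongation factor Eef2 rose by 1.68, 2.26, 1.90 and 1.10. On the other side, Ncl, the nucleolar protein nucleolin with 8257 bases of exons, was at 845 to 1964 CPM against 5968 and 5513 CPM (-1.87 ± 0.25), and Hspa4, Hnrnpab, Prpf8 and Eif4g1 fell by 1.61, 1.43, 1.26 and 1.02.

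Ribosomal protein genes took 8.04% to 12.8% of the counts in the vitro-Tn5 libraries and 1.61% and 1.65% in the ligation-based libraries. Of 87 tested, 66 were higher and 5 lower, with a median log2 fold change of 2.61 against 0.02 for all genes. The class is short (median 775 bases) and its sequence is often repeated (median 43.8% of windows). The 19 members with under 10% repeated windows had 17 higher and none lower (median 2.13), and the 68 others had 49 higher and 5 lower (median 2.82). The 5 that were lower, named here after their values were seen, were Rpl30, at 0 to 0.457 CPM against 6.19 and 4.17 CPM, and Rps16, Rpl15, Rpl29 and Rpl34, which fell by 1.54, 1.47, 1.15 and 1.13. All 5 have 24.6% to 83.7% of their windows repeated.

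Nuclear-encoded genes of the respiratory chain, a class of short mRNAs with little repeated sequence (medians 764 bases and 1.11%), took 2.19% to 3.16% of the counts with tagmentation against 1.25% and 1.26%. Of 81 tested, 53 were higher and 5 lower, with a median of 1.63. Atp5g1, Atp5e and Uqcr11, small subunits of the ATP synthase and of complex III, rose by 3.36, 3.02 and 2.97. Cox4i2, a tissue-restricted subunit of cytochrome oxidase, was at 15.1 to 20.8 CPM against 1.78 and 1.08 CPM (3.87 ± 0.27, SE). Atp5b, the member with the highest mean level, was at 3073 to 3953 CPM against 2455 and 2485 CPM and was not called (0.76 ± 0.19). Among the 5 lower genes, Ndufs1, the largest subunit of complex I, was at 54.9 to 87.6 CPM against 247 and 249 CPM. Proteasome subunits, with a median length of 1456 bases, stayed near all genes, with 7 of 37 higher and 5 lower (median 0.38), and translation factors had 17 of 60 higher and 11 lower (median 0.33).

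Replication-dependent histone genes encode the bulk histones of S phase, and their mRNAs are known to end in a stem-loop instead of a poly-A tail. Of 65 such genes in the files, 33 were tested, 24 were higher and none lower (median 2.70). The stem-loop letters in capitals below, with any base allowed at position 10, were searched on both strands from 250 bases before to 60 bases past the annotated end. On the gene's strand they occurred in 43 of the 65 genes and in 49 of all 25107 genes searched (0.195%), and on the opposite strand in 0. Examples of these histone gene ends are shown with these letters in capitals, on the strand of the gene, all on chromosome 13.
H2ac8 (chr13:23662532-23662557, minus strand): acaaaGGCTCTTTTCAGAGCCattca
H1f5 (chr13:21871701-21871726, minus strand): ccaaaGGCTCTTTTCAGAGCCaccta
H3c11 (chr13:21874784-21874809, minus strand): caaaaGGCTCTTTTCAGAGCCccctc

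H2ac8, a histone H2A gene, was at 24.3, 41.8, 33.8, 56.1, 44.6 and 51.1 CPM in the vitro-Tn5 libraries and at 0.711 and 0.719 CPM with ligation (log2 fold change 6.13 ± 0.51, SE). H3c3, a histone H3 gene, was at 5.32 to 12.2 CPM against 0.142 and 0.288 CPM. H3c11 was at 0 to 1.21 CPM against 0 and 0.0719 CPM, and although it was called the groups overlapped. The whole class took only 0.00677% to 0.0193% of the counts with tagmentation and 0.00284% and 0.00298% with ligation, so these transcripts were rare in both library types. The 23 tested genes with the stem-loop letters had a median of 2.70 and the 10 without 2.58. Only these letters were searched, so genes without them may carry a stem-loop of other bases. The split thus does not tell genes with a stem-loop from genes without one. Both methods start from the poly-A tail, by oligo-dT priming or by oligo-dT selection.

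Replacement histone genes, whose mRNAs carry a poly-A tail, had 7 of 11 higher and none lower (median 1.94). H1f10, a linker histone gene with 69.8% GC and no intron, was at 230 to 491 CPM against 25.9 and 26.5 CPM (4.07 ± 0.36, SE). Cenpa, the histone of centromeres, was at 309 to 526 CPM against 82.0 and 89.7 CPM. H2az2, H2aj and H2ax were also higher, by 2.27, 2.71 and 1.94.

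Zinc finger protein genes, most of them DNA-binding factors, had a median below that of all genes. Of 362 tested, 223 were lower and 31 higher (median -1.60), and they took 0.717% to 0.798% of the counts against 1.49% and 1.45%. Zfp979, with 34.4% GC, was at 0.133 to 0.875 CPM against 210 and 187 CPM (-8.40 ± 0.31, SE). Zfp990 was at 0.875 to 2.73 CPM against 242 and 207 CPM, and Zfp600 at 0 to 0.584 CPM against 48.3 and 37.8 CPM. In wild-type SET-seq Zfp979 was at 1.06 to 140 CPM and in the other in vitro libraries at 0 to 50.4 CPM. Within the class, the 156 genes of at most 44% GC had 138 lower and 3 higher (median -2.96), the 69 of 44% to 48% had 43 lower (median -1.22), and the 137 of over 48% had 42 lower and 25 higher (median -0.12). Zfp57, the member with the highest mean level, which guards imprints, was at 293 to 691 CPM against 575 and 587 CPM and was not called (0.02 ± 0.38).

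Small noncoding RNAs, whose mature forms carry no long poly-A tail, did not move in 1 direction. Of 29 box C/D snoRNA genes tested, which guide RNA methylation, 8 were higher and 11 lower (median -0.38). The sign of this median is not stable, with 0.04 from the replicates 2 alone. Snord104 was at 3.96, 25.6, 5.26, 30.1, 3.79 and 27.9 CPM against 1.14 and 1.94 CPM, and the replicates 2 were again the higher ones. Of 16 box H/ACA snoRNA genes, which guide pseudouridylation, 4 were higher and 2 lower (median 0.60), with Snora65 at 24.9 to 33.0 CPM against 4.34 and 5.47 CPM. Snora81 had no count in the 6 vitro-Tn5 libraries and was at 2.28 and 2.30 CPM with ligation, at least 47.2-fold lower against a floor of 3 counts over the group.

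The RNA subunits of RNase MRP and RNase P are both transcripts of RNA polymerase III, and both were higher. They were the only 2 tested of 12 structured noncoding RNA genes. Near 0 with ligation, they passed the count filter through their counts with tagmentation, so their direction says little about the class. The class median was 6.36, and 1.06 without the filter. Rmrp was at 4.503, 27.5, 5.71, 27.95, 7.59 and 26.2 CPM in the vitro-Tn5 libraries and at 0.213 and 0.0719 CPM with ligation (7.11 ± 1.34, SE). Rpph1 was at 2.73 to 22.03 CPM against 0.284 and 0.360 CPM (5.61 ± 1.07). In the 22 other in vitro libraries Rmrp was at 16.2 to 144 CPM and in wild-type SET-seq at 0 to 380 CPM. Of 1179 microRNA annotations only 24 were tested, of which 11 were higher and 5 lower (median 1.15). This median moved to -0.37 when only the 50 ng/µl libraries were used. In the other sets it was 0.54 at 16 °C, 0.82 at 37 °C, -0.54 with 300 ng of RNA and -0.09 in SET-seq of 10000 cells. Mir703 and Mir3064 had no count with tagmentation and 3.84 and 3.45 CPM and 2.91 and 3.31 CPM with ligation.

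Of 22 snoRNA host genes, 11 were higher and 4 lower (median 0.91). Snhg8 was at 51.6 to 143 CPM against 11.9 and 11.4 CPM, and Snhg14, the long host transcript of the Prader-Willi region, at 0 to 0.229 CPM against 9.10 and 6.33 CPM. Nuclear-retained long noncoding RNA genes had 1 of 11 higher and 5 lower (median -1.06). Malat1, the abundant RNA of nuclear speckles, was at 121 to 214 CPM against 375 and 388 CPM and missed the fold threshold (-0.97 ± 0.21). Mirg was the higher one, at 26.7 to 54.0 CPM against 11.5 and 10.4 CPM, while Rian, a neighbour in the same imprinted cluster, was lower at 7.12 to 13.6 CPM against 90.9 and 96.6 CPM. The 30 imprinted genes tested had 7 higher and 11 lower (median -0.79). Cdkn1c, a cell cycle inhibitor, was at 99.5, 27.8, 137, 35.5, 123 and 29.5 CPM against 2.77 and 2.30 CPM, and here the replicates 1 were the higher ones.

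**Figure D5:**
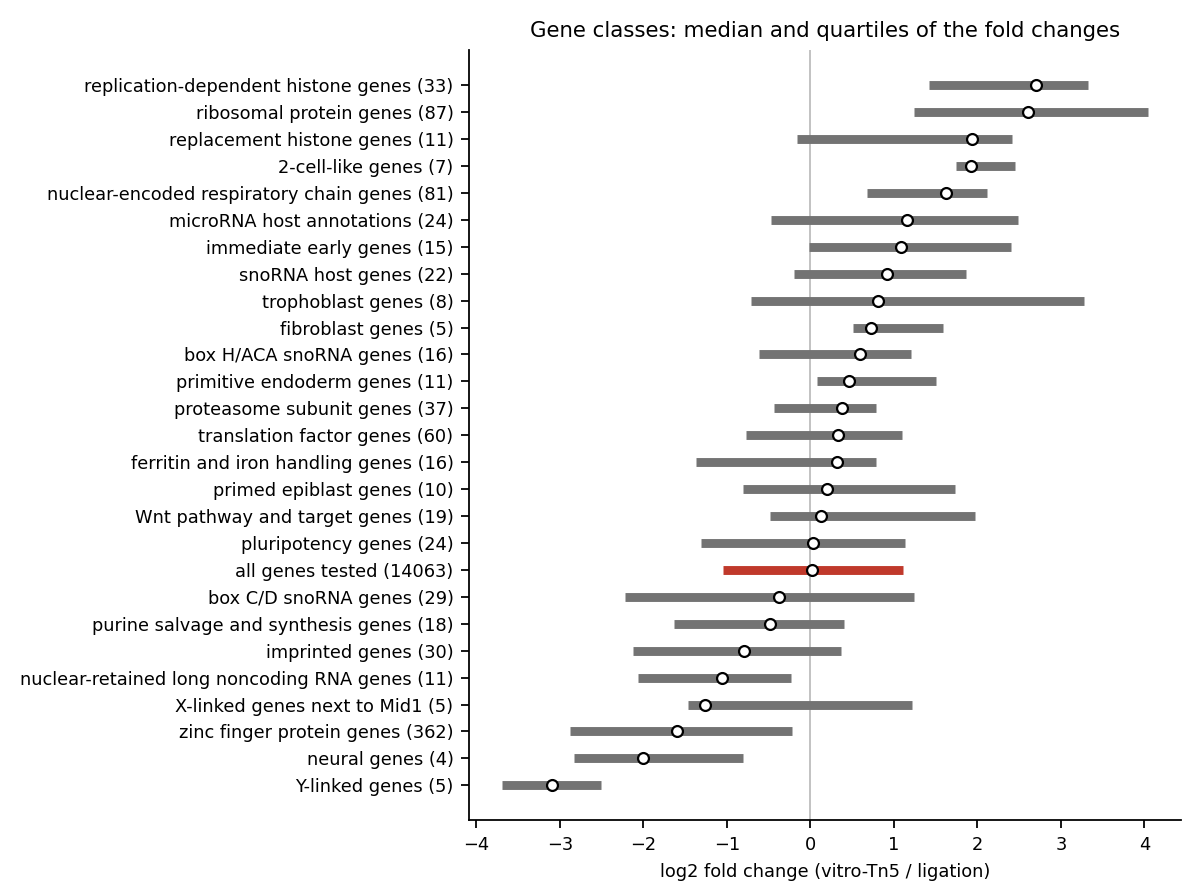
Gene classes by their log2 fold change (vitro-Tn5 over ligation), with the number of genes tested in parentheses; white points are medians, bars quartiles, and the red bar holds all 14063 genes tested. Replication-dependent histone and ribosomal protein genes have the highest medians plotted (2.70 and 2.61), and Y-linked (-3.09), neural (-2.01) and zinc finger (-1.60) genes the lowest.

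All 5 Y-linked genes tested were lower (median -3.09), among them Ddx3y, an RNA helicase gene, at 2.74 to 5.18 CPM against 64.8 and 63.7 CPM, and Uty, a histone demethylase gene, at 0.533 to 2.05 CPM against 34.2 and 30.4 CPM. They are AT-rich, with a median GC of 38.7%, and all genes of at most 40% GC had a median of -2.46. Ddx3y was at 0.364 to 102 CPM in the other in vitro libraries and at 0 to 68.9 CPM in wild-type SET-seq. All 7 genes of the 2-cell-like state tested were higher (median 1.92). This rise was not shared by the other tagmentation sets against the same ligation-based libraries. There the class median was -0.65 at 16 °C, 0.34 at 37 °C, -1.80 with 300 ng of RNA and 0.15 in SET-seq of 10000 cells. Zscan4c, which marks that state, was at 29.7 to 37.6 CPM against 1.35 and 1.80 CPM (4.64 ± 0.24, SE), with 61.9% of its windows repeated. It was at 0 to 5.20 CPM in the other in vitro libraries, 1.80 to 17.8 CPM in wild-type SET-seq and 98.8 to 194 CPM in the knockouts.

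Immediate early genes, which answer quickly to stimuli, had 8 of 15 higher and 2 lower (median 1.08). Jund was at 725 to 1206 CPM in the replicates 1 and 581 to 804 CPM in the replicates 2, against 62.9 and 67.8 CPM. It was at 52.8 to 429 CPM in the other in vitro libraries and at 0 to 75.2 CPM in wild-type SET-seq. Jun and Ier3 rose by 2.88 and 2.98, at 21.4 to 43.7 CPM against 4.34 and 5.18 CPM and at 17.3 to 30.6 CPM against 3.06 and 4.099 CPM. Side by side, the median of the class was 0.03 at 16 °C, 0.11 at 37 °C and 0.17 with 300 ng of RNA, against the same ligation-based libraries.

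Among pluripotency genes, Dppa5a, a short gene of 639 bases, was at 1450 to 2932 CPM against 158 and 167 CPM (4.08 ± 0.40, SE). Esrrb and Tfcp2l1, factors of naive pluripotency, were lower in all 6 libraries: Esrrb at 156 to 217 CPM against 1191 and 1220.1 CPM, and Tfcp2l1 at 189 to 368 CPM against 1566 and 1597 CPM. Esrrb was at 52.6 to 173 CPM in the other in vitro libraries and at 234 to 450 CPM in wild-type SET-seq, all below the ligation-based libraries. Marker genes of other cell types were low in both library types. The primitive endoderm list took 0.0627% to 0.122% of the counts with tagmentation and 0.0739% and 0.0742% with ligation. The other lists took 0.0389% to 0.0483% with tagmentation for primed epiblast, 0.0150% to 0.0184% for trophoblast, 0.00455% to 0.00888% for neural and 0.00219% to 0.00418% for fibroblast genes. With ligation these shares were 0.0536% and 0.0546%, 0.0120% and 0.0120%, 0.0171% and 0.0173%, and 0.00194% and 0.00203%. Calls among them were 3 higher and 2 lower of 10 primed epiblast genes, 2 and 0 of 11 primitive endoderm genes, 4 and 2 of 8 trophoblast genes, 0 and 3 of 4 neural genes, and 2 and 0 of 5 fibroblast genes. Their part in the other differences was not tested.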

How the data were processed

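The deposited files give raw counts of read pairs per gene, 1 file for each library. Per the labels and the study's methods, the authors trimmed reads with Trim Galore 0.6.4, aligned them to mm9 with STAR 2.5.4b and counted exons per RefSeq gene with featureCounts 2.0.0, ignoring strand and leaving out multimapping reads and those shared by genes. Genes in repeated sequence thus lose reads. Rn45s was removed before library sizes were taken. Total counts were 3710685 to 17647365 per library, and intervals and floors cover counting error only.

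Genes that passed the count filter of edgeR 4.0.16 (R 4.3.3) were tested for the 6 vitro-Tn5 against the 2 ligation-based libraries with TMM scaling and edgeR's quasi-likelihood test, Benjamini-Hochberg adjusted over all genes tested. The code was tested on simulated data. A call needed an adjusted p below 0.05 and an absolute log2 fold change above 1. CPM was not scaled by TMM, and 0.5 was added before taking log2. Exon GC content and the share of windows of 100 bases, taken every 5 bases, that occur again in the genome were computed with Python 3.11.15 from NCBIM37.

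Named genes were the 4 stock genes, the 10 largest rises and falls among called genes with a mean log2 CPM of at least 3 and no overlap between groups, up to 4 called members of each list and its member with the highest mean level, and the 5 called genes of highest level in each direction. Further genes (the coding genes of copied annotations, common reference genes, the best-known pluripotency factors, histone genes with printed ends and the lower members of classes) were named after their values were seen. The comparison, the genes and the 29 lists were chosen with earlier results of these data known, and symbols in the lists were brought to those of the files. Some items that the rule names are not reported here. Alternatives were DESeq2 1.42.0, its size factors, total counts, no filter, Rn45s included, no fold threshold, a replicate block, each Tn5 amount alone, and leaving out each library. Replicates 2 alone and genes with little repeated sequence were added after seeing the data.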

Additional observations from a re-analysis of the deposited data

Results flagged for a closer look

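Xpo1 had 1 vitro-Tn5 library far from the others: replicate 1 at 50 ng/µl was at 4.04 (log2 CPM), and the other 5 at 4.91 to 5.15. Of 64 values checked for such a sample this was the only one, and chance flags about 1 in 20.

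Rn45s, which was left out of the comparisons, took a median of 5.94% of the counts in the vitro-Tn5 libraries, above the 1.54% and 1.96% in the ligation-based libraries.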

How the results depend on the processing

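The counts of called genes, the 4 stock genes and the median of genes under 500 bases kept their direction and side of the threshold, or stayed within their limits, under all alternatives that held them. Ftl1 is not among the genes with little repeated sequence, so that alternative gave no value for it. Genes detected at equal depth differed by 200.8 between the types, by -55.8 with at least 5 counts and by -278 without thinning, and the cause was not tested. Leaving out 1 library gave 2939 to 3650 higher and 3427 to 3762 lower genes, -9.92 to -9.20 for Hprt, 7.13 to 7.31 for Mid1, 3.75 to 3.95 for Lef1 and -4.62 to -4.51 for Ftl1. Without ligation-based replicate 1 or 2 the ligation group is 1 library, assumed to vary like the others. DESeq2 called 3599 higher and 3581 lower. Of 545 medians of gene lists under the alternatives, 487 stayed within 1 SD of the library medians and 19, in 10 lists, had the other sign. The box H/ACA median was -0.42 without a count filter, and the trophoblast median -0.07 without repeated genes.

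A fit with the replicate number as a block called 3647 higher and 3669 lower and gave -9.61 for Hprt. Replicate differences correlated at 0.645 to 0.744 between Tn5 amounts and at 0.022 to 0.038 between these and the ligation-based libraries, so the numbers did not pair both types.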
